A study of Mus musculus with 12 samples.

Results

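eIF2, its exchange factor eIF2B and the kinases that phosphorylate eIF2 were examined in mouse livers with Mettl5 (WT) and without it (KO). The genes were taken by name from the table of normalized reads and comprise 10 of its 10607 genes. They are the 3 eIF2 subunits Eif2s1 (alpha), Eif2s2 (beta) and Eif2s3x (gamma, from the X chromosome), the 4 eIF2B subunits Eif2b1 (alpha), Eif2b2 (beta), Eif2b4 (delta) and Eif2b5 (epsilon), and the 3 kinases Eif2ak1 (HRI), Eif2ak3 (PERK) and Eif2ak4 (GCN2). The remaining members of the complexes, Eif2b3 (eIF2B gamma), Eif2ak2 (PKR) and Eif2s3y (the Y-linked eIF2 gamma), are given beside them. METTL5 methylates an adenosine of 18S rRNA in the small ribosomal subunit, and the livers were profiled to ask which transcripts are translated differently without it.

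KO mice carried a Mettl5 allele whose floxed exon 2 had been removed in the whole body with CMV-Cre (line B6.C-Tg(CMV-cre)1Cgn/J). The allele was made in embryonic stem cells from a cross of C57bl/6 and 129S6 mice and was then backcrossed to B6. WT littermates were the controls, and the 6 mice formed 3 litters of 1 WT and 1 KO mouse each. The labels used here give no age or sex for single mice, and no treatment of the animals. Snap-frozen livers were lysed in cycloheximide, which stalls ribosomes on their transcripts. Each liver gave an input library (RNA-seq of the lysate, a measure of transcript level) and an RPF library, made from ribosome-protected fragments, the stretches of mRNA that a ribosome covers, so that the 12 libraries fell into 4 groups of 3. The ratio of RPF to input is the translation efficiency (TE).

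eIF2 is a GTP-binding complex of 3 different subunits that carries the initiator methionyl-tRNA to the small ribosomal subunit and is released with GDP once the start codon is found. eIF2B puts GTP back on eIF2, and its epsilon subunit holds the catalytic site. Under stress the kinases phosphorylate the alpha subunit on a single serine, phosphorylated eIF2 then blocks eIF2B, and general initiation falls while a few transcripts such as Atf4 are translated more. HRI senses heme shortage and mitochondrial stress, PERK senses unfolded proteins in the endoplasmic reticulum, GCN2 senses amino acid shortage and PKR senses double-stranded RNA.

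The serine codon that the kinases act on is shown because it joins the kinases to their substrate. It is codon 52 of the Eif2s1 coding sequence (CDS), residue 51 without the initiator methionine, and stands in capitals within 27 bases of the plus strand of chromosome 12 (mm10, gene from 78861819 to 78887010).
Eif2s1 serine codon: cttagtgaattaTCCagacgacgtatc
The start sites of the pair of members with the most RPF per input read in WT and of the pair with the least are shown because eIF2 acts at this place. The start codon is in capitals, with the end of the 5′ untranslated region before it. Eif2b1 lies on chromosome 5 (124570213 to 124579131, minus strand) and Eif2ak4 on chromosome 2 (118388618 to 118475234, plus strand).
Eif2s1 start: cacttcagaATGccg
Eif2b1 start: gaggaagccATGgag
Eif2s3x start: ccgagcaagATGgct
Eif2ak4 start: ccggccgccATGgct
The preferred context has A or G at the third base before the start codon (ANNATG or GNNATG) and G just after it (ATGG), read on the coding strand only. Of the 10 members, 8 had the first feature, 5 had the second and 4 had both. Over 10222 genes of the table with a complete CDS the shares were 86.6%, 53.3% and 46.1%. Of the start sites shown, those of Eif2b1, Eif2s3x and Eif2ak4 held both features, and that of Eif2s1 held the first alone. A relation of these features to RPF per input read was not tested.

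Input libraries held 8326325 to 11825643 counted read pairs. Over the genes of the normalized table there were 2398804 to 5121304 reads per input library and 4623826 to 9184242 per RPF library. Each value in the table is a whole number of reads divided by 1 factor per library, called normalized reads here. It holds no gene length, so a long gene collects more. All 10 members passed the filter on low values, a mean of at least 10 normalized reads in each assay. The targeted gene was checked first. Mettl5 RPF was 58.4, 47.8 and 53.1 normalized reads in WT mice 1, 2 and 3 and 8.34, 5.53 and 9.56 in KO mice. The log2 fold change, −2.64 with an SE of 0.36, passed in limma (adjusted p 0.00504). It missed the threshold only without KO mouse 2 (adjusted p 0.0522). In input the log2 fold change of Mettl5 was −1.59 (SE 0.46, edgeR adjusted p 0.999). In TE it was −1.16 (SE 0.51, limma adjusted p 0.998). Neither passed, so a gene that is not called in input or TE can still differ by as much. All 6 hepatocyte markers were detected in every input library, with a sum over the markers, scaled to library size (CPM), of 76573 to 96902 in WT and 79057 to 91939.9 in KO. The sums of 4 markers each for other liver cells were far lower. Stellate cell markers had 251 to 259.9 CPM in WT and 266 to 364 in KO, groups that did not overlap, and their part in the results below was not tested. Kupffer cell markers (216 to 302 in WT, 192 to 304 in KO), endothelial markers (221 to 267, 237 to 308), cholangiocyte markers (17.8 to 23.8, 15.0 to 23.4) and lymphocyte markers (0.87 to 1.89, 1.88 to 2.5) overlapped between genotypes. Neutrophil markers reached at most 0.48 in WT and 1.25 in KO, with Ngp and Ly6g at 0 in every library.

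The members spanned a wide range of RPF levels in liver. Levels were compared as normalized RPF reads per kilobase of CDS, averaged over 6 mice, and the median of 10594 genes was 37.9. Eif2s1 had 176, Eif2b1 159, Eif2b4 114, Eif2s2 86.3, Eif2ak1 65.2, Eif2b2 49.6 and Eif2b5 46.6. Eif2ak3 had 19.7, Eif2s3x 10.5 and Eif2ak4 6.84, all below the median gene. The ranges over all 6 mice did not overlap between Eif2ak1 and Eif2b2 and between Eif2b5 and Eif2ak3. Within single mice, Eif2b4 stood above Eif2s2 and Eif2ak3 above Eif2s3x in 6 of 6, though their ranges over the 6 mice overlapped. The remaining neighbours changed places in at least 1 mouse and had overlapping ranges. The order was the same with RefSeq CDS lengths, where Eif2b4 alone had another length (1635 against 1701 bases).

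Reads were kept only where they mapped to a single place, so copies of a CDS elsewhere in the genome lower the reads that can be counted. All overlapping 30-base windows of each CDS were searched for exact copies elsewhere on the mm10 chromosomes. The authors' RPF mapping allowed mismatches, so near copies can also lower the reads, and these were not searched. The 4 eIF2B subunits and the 3 kinases had 0 windows with an exact copy. Of the eIF2 subunits, Eif2s1 had a copy of 57.3% of its windows, Eif2s2 (chromosome 2, 154871410 to 154892935, minus strand) of 84.5% and Eif2s3x (chromosome X, 94188707 to 94212862, minus strand) of 95.1%. The copies lay in processed pseudogenes. Gm9892 on chromosome 8 held 817 of the 967 Eif2s2 windows, Gm2223 on chromosome X held 1322 of the 1390 Eif2s3x windows, and Gm7459 on chromosome 15 and Gm12734 on chromosome 11 held 336 and 318 of the 919 Eif2s1 windows. The pseudogenes themselves had few input counts, 3 to 6 per library for Gm9892 and 1 to 6 for Gm2223. Only uniquely mapped pairs were counted, so these counts cannot show how many reads the pseudogenes gave.

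Levels of the eIF2 subunits are therefore uncertain between genes, while a comparison of 1 gene between genotypes uses the same windows in each mouse. Counted per 1000 windows found nowhere else, Eif2s2 led with 573 normalized RPF reads, followed by Eif2s1 with 425 and Eif2s3x with 219.6, ahead of Eif2b1 with 164 and Eif2b4 with 116. The Eif2s3x value rests on 68 windows. This second count was chosen after the data were seen.

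**Figure D1:**
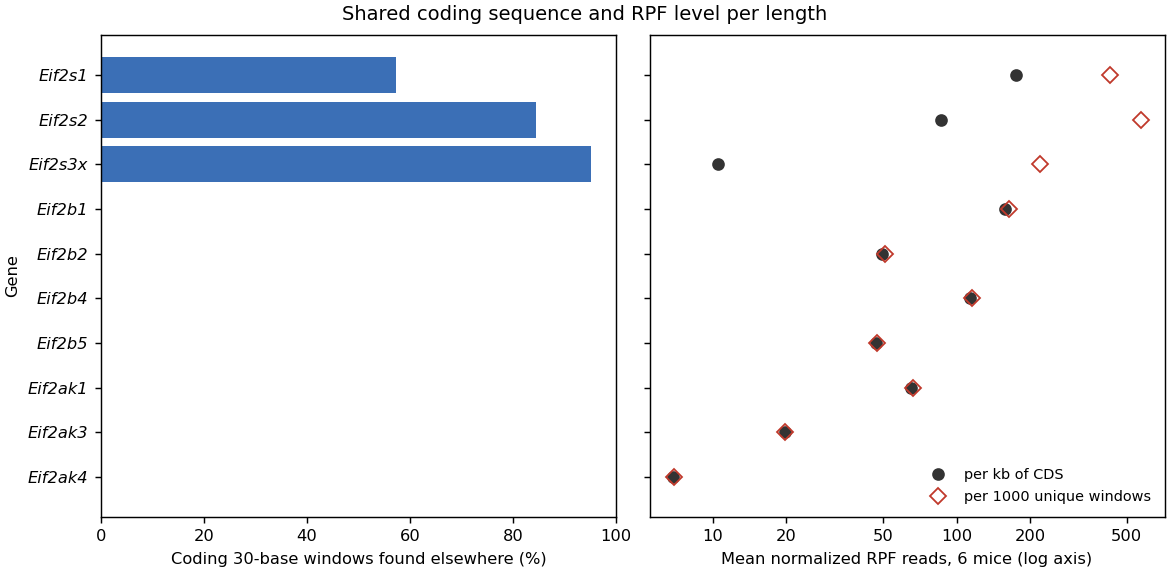
Left, percent of the 30-base windows of each coding sequence found elsewhere on the mm10 chromosomes, which is 57.3 to 95.1% for the eIF2 subunits and 0 for all other members. Right, mean normalized RPF reads over 6 mice on a log axis, per kilobase of coding sequence (filled) and per 1000 windows found nowhere else (open), which differ for the eIF2 subunits and nearly coincide for the others.

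The subunits of each complex occur in equal copies in the protein, and their shares of footprints were compared with that. The gamma subunit has 2 genes, so Eif2s3x and Eif2s3y were summed. Within eIF2 in WT, Eif2s1 held 40.8% ± 2.2 of the summed RPF per kilobase of CDS, Eif2s2 20.3% ± 5.0 and the gamma genes 38.9% ± 3.0 (SD, n = 3). In KO the shares were 38.8% ± 2.3, 18.8% ± 2.6 and 42.4% ± 0.28. Per unique window the order turned, with 31.2%, 42.2% and 26.7% in WT. With Eif2s3x as the only gamma gene, Eif2s1 held 64.5% ± 5.9 per kilobase in WT and 35.4% ± 4.6 per unique window, so the share depends on both choices. eIF2B is free of shared windows, Eif2b3 included. With Eif2b3, which had 58.5 RPF per kilobase of CDS in WT and 54.3 in KO, its 5 subunits were uneven in every mouse, with 2.40 to 4.56 times between the highest and the lowest. In WT, Eif2b1 held 39.9% ± 1.5 of their sum, Eif2b4 25.5% ± 1.8, Eif2b3 13.2% ± 2.2, Eif2b2 11.6% ± 0.76 and Eif2b5, the catalytic subunit, 9.78% ± 1.03 (SD, n = 3). In KO, Eif2b1 held 34.4% ± 4.4 and Eif2b5 12.3% ± 2.0. Shares of 1 sum are not independent of each other, and the RPF levels of both genes overlapped between genotypes. No test was run on these shares. The sums over every measured subunit were chosen after the data were seen.

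Footprints relative to transcript were then compared between genes in WT, with each library centred on its median gene. The median over all genes of this difference was 0.22 on the log2 scale, against which the values below can be read. Of the 10 members, 8 passed an adjusted p of 0.05 in limma, where 58.5% of all 8994 genes tested did. Eif2s1 (log2 1.33, SE 0.18), Eif2b1 (1.25, SE 0.23) and Eif2b4 (0.60, SE 0.16) were higher in RPF, as were 35.4% of all genes. Eif2ak4 (−1.20, SE 0.25), Eif2s3x (−1.04, SE 0.32), Eif2ak3 (−0.81, SE 0.26), Eif2s2 (−0.61, SE 0.20) and Eif2b5 (−0.46, SE 0.17) were lower, as were 23.1% of all genes. Copied windows, which make up 57.3% of Eif2s1, 84.5% of Eif2s2 and 95.1% of Eif2s3x, can bear more on short RPF reads of the CDS than on read pairs over the whole transcript, and their part in these values was not tested. Eif2b2 (0.55, limma adjusted p 0.0641) and Eif2ak1 (−0.17, adjusted p 0.374) did not pass. The kinases thus had the 3 values −0.17, −0.81 and −1.20, while Eif2s1, their substrate, had the highest value of the members.

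Over the same 3 WT livers the raw ratios show how far the members lay apart. The TE of Eif2s1 was 2.47, 2.06 and 2.43 in WT mice 1, 2 and 3, and that of Eif2ak4 was 0.25, 0.40 and 0.58, so that the lowest Eif2s1 ratio exceeded the highest Eif2ak4 ratio. Eif2b3, the remaining eIF2B subunit, lay with Eif2b1 at a log2 of 1.40 (SE 0.25), Eif2ak2 lay at 0.70 (SE 0.25), above the other kinases, and Eif2s3y lay at 1.11 (SE 0.18). Input reads come from the whole transcript and RPF reads from the CDS, so the fit was repeated with RPF per kilobase of CDS and input per kilobase of transcript. Then 5 members passed, namely Eif2s1 (2.20) and Eif2b1 (1.40) higher and Eif2ak4 (−2.10), Eif2ak3 (−1.36) and Eif2b5 (−1.20) lower. Eif2b4 turned to −0.33 and did not pass, and Eif2s2 (−0.24) and Eif2s3x (−0.66) lost the call. Without WT mouse 1 the number passing was 5, with Eif2s3x, Eif2b5 and Eif2ak3 lost. Without WT mouse 3 it was 6, with Eif2s2, Eif2b5 and Eif2ak3 lost and Eif2b2 gained. Over all genes 3185 were higher and 2075 lower in this fit, against 2517 and 2583 by edgeR on recovered reads, which called 9 members.

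**Figure D2:**
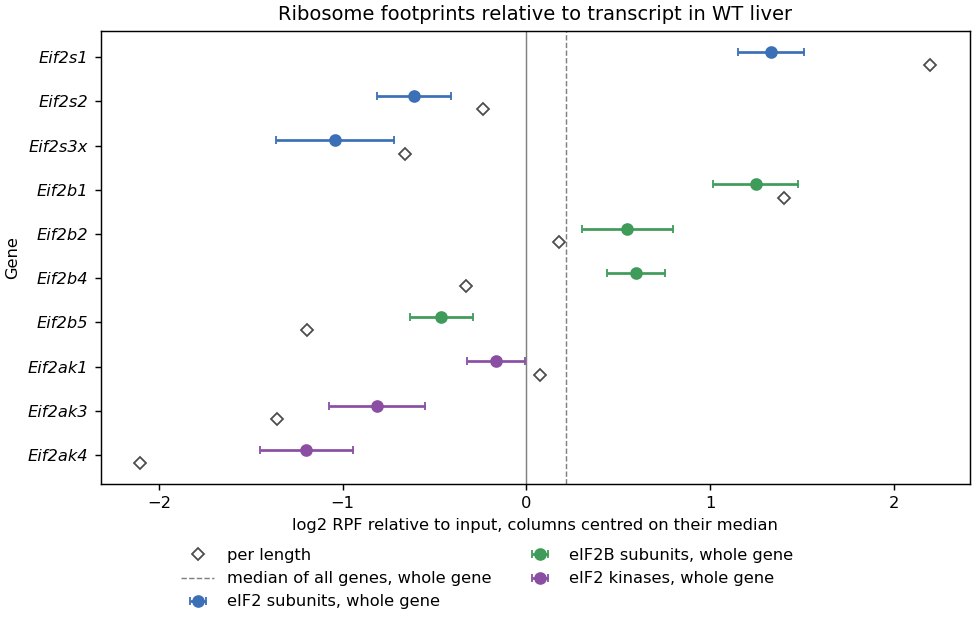
log2 RPF relative to input in 3 WT livers, for whole genes (filled, with standard errors) and per length (open diamonds, no error drawn). The dashed line is the median of all genes on the whole-gene scale at 0.22, and the median per length was 0.16. On both scales Eif2s1 and Eif2b1 passed as higher and Eif2ak3, Eif2ak4 and Eif2b5 as lower.

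The eIF2 subunits had lower mean RPF in KO than in WT, but none of the 10 members passed adjustment over all genes in input, RPF or TE. In RPF 44 of 8994 genes (0.489%) passed in limma. The log2 fold changes were negative for 3 of 3 eIF2 subunits and 2 of 4 eIF2B subunits, and positive for 3 of 3 member kinases. Over all genes 46.0% were positive. Eif2ak2, the kinase given beside the members, was at −0.78. The median over the members was −0.04 and that over all genes −0.03. At an unadjusted p under 0.05 stood Eif2s1, Eif2s2 and Eif2ak4, that is 3 of 10 members, where 13.4% of all genes did. The edgeR test on reads recovered from the table also called 0 members. In input 0 of 10057 genes passed in edgeR, and DESeq2 called 0 members. By edgeR 0 members had an unadjusted p under 0.05 in input, against 3.46% of all genes. In the limma fit used for RPF, 2 members (Eif2s1 and Eif2b1) did so in input, as did 461 of 8994 genes. There 2 genes passed adjustment, and neither was a member. The levels come from bulk liver, where fewer cells of a type and less RNA per cell cannot be told apart.

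Eif2s1 encodes the alpha subunit that carries the regulated serine. Its input was 75.2, 108 and 78.7 normalized reads in WT mice 1, 2 and 3 and 61.2, 67.8 and 64.0 in KO mice. Its RPF was 186, 223 and 191 in WT and 125, 153 and 123 in KO. All KO mice lay below all WT mice in both assays, and the difference had the same sign in 3 of 3 litters. Groups that do not overlap were found in 9.25% of all genes in input and in 19.8% in RPF, and all KO below all WT in 5.6% and 12.9%. Eif2s1 was the only member so placed in input, and it shared that place in RPF with Eif2s2 alone.

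The RPF log2 fold change of Eif2s1 was −0.58 (SE 0.18, p 0.00446, limma adjusted p 0.148). With the litter as a block, the paired fit, it was −0.58 (SE 0.16) and passed (limma adjusted p 0.0476), where 293 genes or 3.26% of all genes passed. Its input log2 fold change was −0.42 (SE 0.22, p 0.0767), which did not pass in edgeR and was −0.24 without WT mouse 2. The limma fit put the input change at −0.42 (SE 0.18, p 0.0303, adjusted p 0.930). In TE the log2 fold change stood at −0.16 (SE 0.25, limma adjusted p 0.998). The RPF change was −0.68 to −0.50 when each mouse was left out in turn.

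Eif2s2, the beta subunit that helps select the start codon, had RPF of 126, 82.8 and 102 in WT and 78.5, 72.5 and 53.5 in KO, so that the lowest WT mouse lay just above the highest KO mouse. Its input was 207, 141 and 173 in WT and 162, 178 and 178 in KO, with all KO mice inside the WT range. The RPF log2 fold change was −0.60 (SE 0.20, p 0.00745, limma adjusted p 0.182), with an adjusted p of 0.0743 in the paired fit. In TE it was −0.60 (SE 0.28, p 0.0459, limma adjusted p 0.998). The TE itself was 0.59 to 0.61 in WT and 0.30 to 0.49 in KO, and in each of the 3 litters the KO mouse had the lower TE. Of the members, 2 (Eif2s2 and Eif2ak4) had an unadjusted p under 0.05 in TE, where 4.7% of all genes did, and 0 genes passed adjustment.

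Eif2s3x, the GTP-binding gamma subunit, had RPF of 10.5, 18.8 and 20.1 in WT and 14.6, 12.3 and 13.4 in KO, from 12 to 39 reads per library. Its RPF value was thus −0.23 on the log2 scale (SE 0.32, limma adjusted p 0.804), smaller than its error. Its input was 32.9 to 42.0 in WT and 22.6 to 36.8 in KO, with a log2 fold change of −0.34 (SE 0.30) and overlapping groups.

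**Figure D3:**
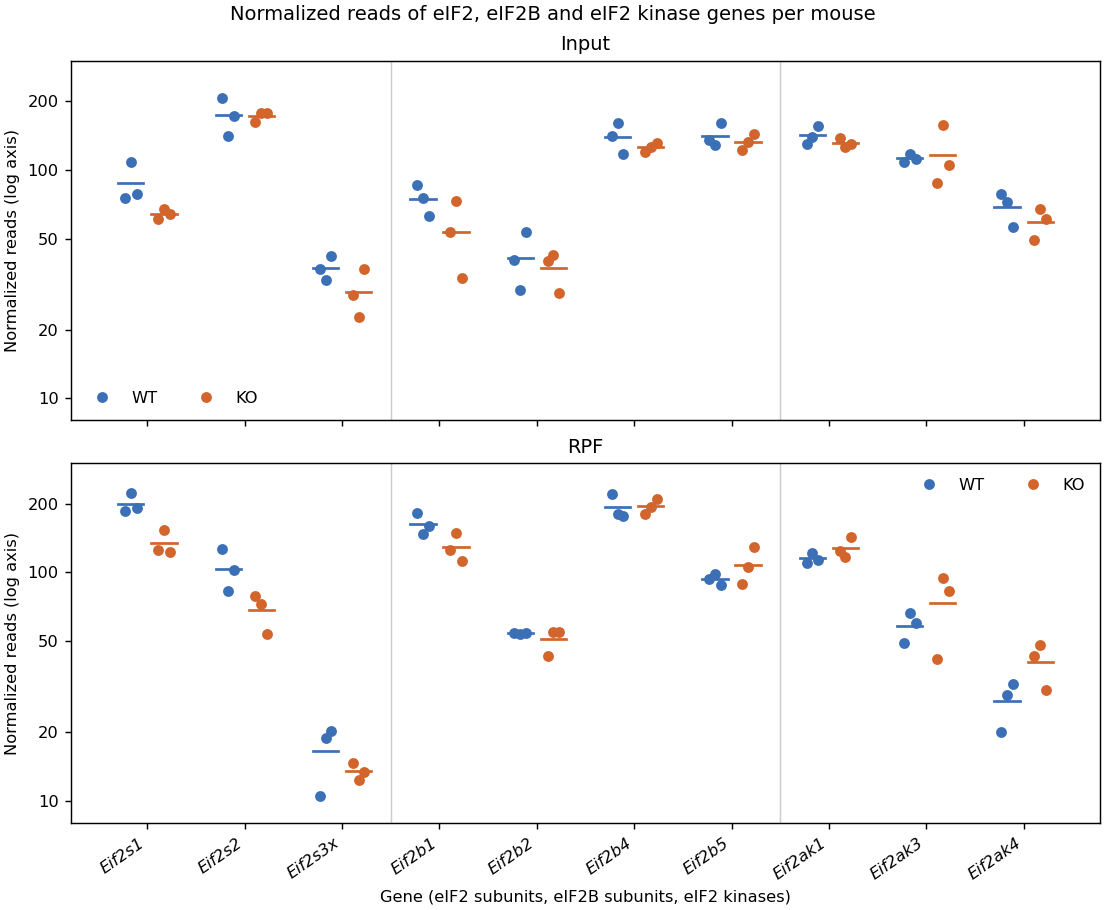
Normalized reads of each member in input (top) and RPF (bottom) on a log axis, with a point per mouse and a line at the mean of 3 mice, WT in blue and KO in orange. Eif2s1 is the only gene whose groups do not overlap in both panels, and Eif2s2 is apart in RPF only, by the gap from 82.8 to 78.5.

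The RPF log2 fold changes of the eIF2B subunits were −0.34 to 0.19. Eif2b1, a regulatory subunit that contacts phosphorylated eIF2, had RPF of 147 to 181 in WT and 112 to 149 in KO. This difference of −0.34 on the log2 scale had an SE of 0.23 and a limma adjusted p of 0.552. Its input was 62.9 to 86.2 in WT and 33.6 to 73.1 in KO, and in each of the 3 litters the KO mouse had the lower value. The input log2 fold change was −0.44 (SE 0.27) in edgeR and −0.54 (SE 0.23, p 0.0327, adjusted p 0.934) in limma. Eif2b2, a subunit of the regulatory part, had nearly constant RPF of 53.8 to 54.2 in WT and 43.1 to 54.7 in KO, and a log2 fold change of −0.10 (SE 0.25).

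Eif2b4, also of the regulatory part, had RPF of 177 to 221 in WT and 181 to 210.2 in KO, a log2 fold change of 0.02 (SE 0.16). Eif2b5, the catalytic subunit, had RPF of 87.7 to 98.1 in WT and 89.0 to 129 in KO, a log2 difference of 0.19 with an SE of 0.17 (limma adjusted p 0.671). The TE log2 fold changes of the 4 subunits were 0.03 to 0.28 and the input changes −0.44 to −0.07, none past adjustment. The RPF log2 fold change of Eif2b3 was −0.11 (SE 0.25).

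The kinases among the members had RPF values that were, on average, higher in KO. Eif2ak4 had RPF of 20.0, 29.0 and 32.5 in WT mice and 43.1, 47.9 and 30.6 in KO mice, from 23 to 78 reads. KO mouse 3 lay within the WT range, and the groups overlapped. The log2 fold change was 0.56 (SE 0.25, p 0.039, limma adjusted p 0.348) in RPF, −0.20 (SE 0.24) in input and 0.78 (SE 0.36, p 0.0429, limma adjusted p 0.998) in TE. The TE of Eif2ak4 was 0.25, 0.40 and 0.58 in WT and 0.87, 0.71 and 0.50 in KO, higher in KO in 2 of 3 litters. Without WT mouse 1 the RPF and TE changes were 0.37 and 0.48.

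Eif2ak3 had RPF of 48.8 to 66.5 in WT and 41.7 to 94.7 in KO (log2 fold change 0.25, SE 0.27), and KO mice held both the highest and the lowest value. Eif2ak1 had RPF of 109.8 to 122 in WT and 117 to 142 in KO (0.14, SE 0.15). HRI is best known from red cell precursors, and the summed erythroid markers were 153 to 215 CPM in WT input and 149.8 to 175 in KO input. Eif2ak2, which is induced by interferon, had a negative value, unlike the other kinases. Its RPF was 118, 79.3 and 95.4 in WT and 67.4, 55.9 and 45.9 in KO, a log2 fold change of −0.78 (SE 0.25, p 0.00614, limma adjusted p 0.17), while its input log2 fold change was −0.03 (SE 0.27).

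**Figure D4:**
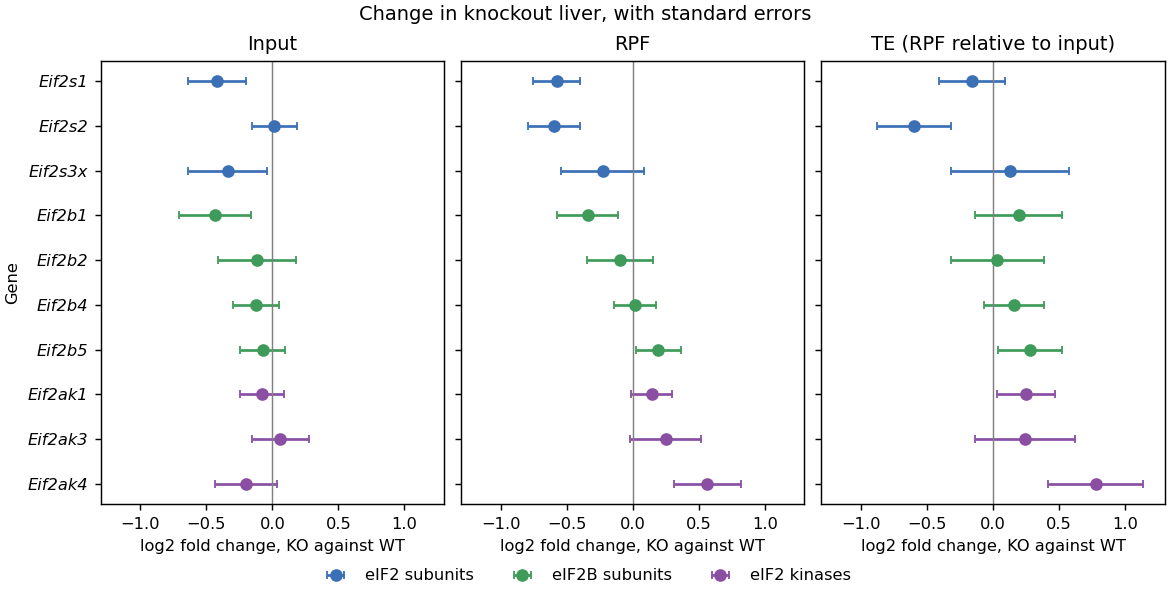
log2 fold changes of KO against WT in input (edgeR), RPF and TE (limma), with standard errors, for 3 mice per genotype. In RPF the eIF2 subunits lie at −0.60 to −0.23 and the kinases at 0.14 to 0.56, and no value passed adjustment over all genes without the litter block.

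Base composition differed between the groups of members and moved with the RPF change. The CDS of the eIF2 subunits held 39.8 to 44.9% GC, that of the eIF2B subunits 48.9 to 56.3% and that of the kinases 49.2 to 53.2%, against a median of 52.5% over all genes tested. Across the 10 members the RPF log2 fold change and CDS GC content had a Spearman rho of 0.65 (Pearson r 0.69). Across 8985 genes rho was 0.46 (r 0.43). Genes share their libraries and are no independent replicates, and no test was run.

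When the trend of each library with CDS GC content was removed, the RPF log2 fold change of Eif2s1 was −0.32 (limma adjusted p 0.608), that of Eif2s2 −0.29 (adjusted p 0.708) and that of Eif2s3x −0.03 (adjusted p 0.988). That of Eif2ak4 was 0.62 (adjusted p 0.432), and those of Eif2ak1 and Eif2ak3 were both 0.25. Across the 10 members the Spearman rho with CDS GC content was then 0.45, against 0.65 before removal. With trends of GC content and CDS length removed and the litter as a block, Eif2s1 was at −0.29 and did not pass (limma adjusted p 0.469). Eif2ak2 and Eif2s3y, with 41.4% and 41.2% GC, went from −0.78 to −0.50 and from −0.39 to −0.11 with the GC trend removed.

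**Figure D5:**
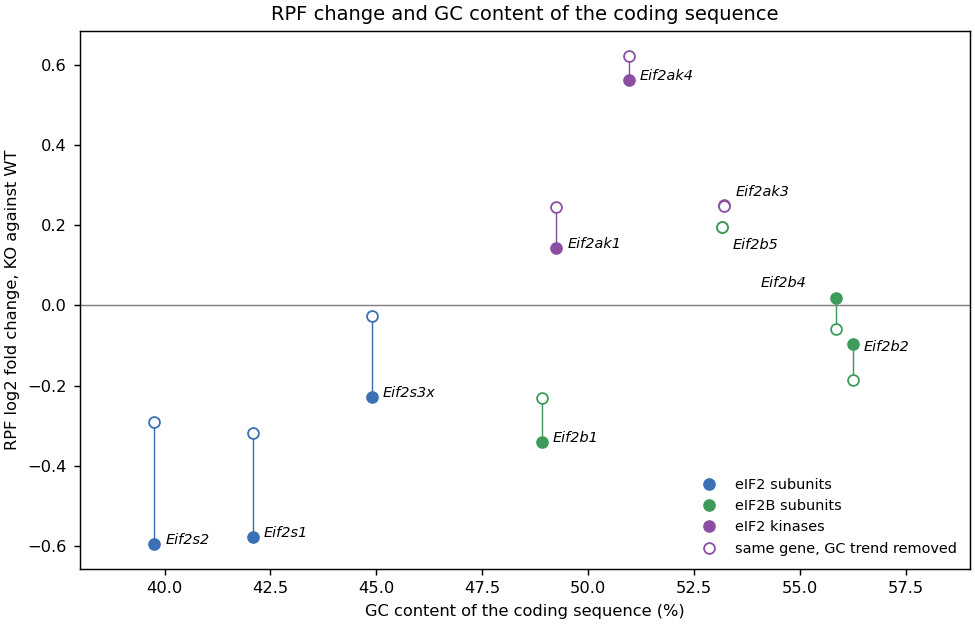
RPF log2 fold change (KO against WT) against the GC content of the coding sequence for the 10 members, as measured (filled) and with the GC trend of each library removed (open). Eif2s1 and Eif2s2, at 42.1 and 39.8% GC, move from −0.58 and −0.60 to −0.32 and −0.29, and Eif2ak4 moves from 0.56 to 0.62.

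eIF2 gamma is made from both sex chromosomes in male mice. More of the counted reads came from the Y-linked copy, but the order of the 2 genes depended on how shared windows were treated. Xist had 0 counts in all 6 input libraries, while the Y-linked Ddx3y had 261 to 728, Uty 42 to 69 and Kdm5d 22 to 48. Eif2s3y (chromosome Y, 1010543 to 1028847) encodes a protein 97.9% identical to that of Eif2s3x, with 10 residues that differ. Their coding sequences are 86.3% identical and share only 5 exact windows of 30 bases. The RPF mapping allowed mismatches, and whether it told all reads of the 2 genes apart was not tested. The first 30 bases of the CDS show the differences, with the 8 positions that differ in capitals.
Eif2s3x: atggcTggGggTgaGgGTggAgtGactctc
Eif2s3y: atggcGggCggAgaAgCCggTgtCactctc
The ratio of Eif2s3y to Eif2s3x in normalized reads was 3.78 ± 1.23 in WT input and 4.03 ± 0.43 in KO input. In RPF it was 17.4 ± 5.3 in WT and 15.4 ± 3.0 in KO (SD, n = 3), and the ranges of the genotypes overlapped in both assays.

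Only 0.36% of the Eif2s3y windows have an exact copy elsewhere, against 95.1% of those of Eif2s3x. Per 1000 unique windows the order turned in RPF. Eif2s3x had 242 and Eif2s3y 194 in WT, a ratio of 0.86 ± 0.26 that was below 1 in 2 of 3 mice. In KO they had 197 and 148, a ratio of 0.76 ± 0.15 that was below 1 in 3 of 3 mice. The Eif2s3x value again rests on 68 windows. RPF of Eif2s3y was 243, 301 and 262 in WT mice 1, 2 and 3 and 203, 232 and 181 in KO mice, with all KO below all WT. The log2 fold change was −0.39 (SE 0.18, p 0.0429, limma adjusted p 0.359). The sum of both gamma genes in RPF was 285 ± 33 in WT and 219 ± 25 in KO.

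Few genes of the wider pathway stood out. Of 28 listed partners and regulators of eIF2 (start codon factors, phosphatase subunits, kinase activators and inhibitors, which include Eif2b3, Eif2ak2 and Eif2s3y), 27 were tested in input and 23 in RPF and TE, and 0 passed in any. At an unadjusted p under 0.05 stood 1 in input, 6 in RPF and 2 in TE, where 3.46%, 13.4% and 4.7% of all genes did. Their median log2 fold changes were 0.01, −0.11 and −0.10, against −0.03 and −0.01 over all genes in RPF and TE. The smallest p-value belonged to Cdc123, which helps assemble eIF2, in input (−0.56, SE 0.20, p 0.0136), to Eif2ak2 in RPF and to Nck1, an adaptor that binds eIF2, in TE (−0.69, SE 0.29, p 0.0254).

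Of 22 genes known to rise when eIF2 is phosphorylated, 12 were tested in input and 11 in RPF and TE. One of the 11, the transcription factor Atf5, passed in RPF, where 0.489% of all genes did. It had 250.1, 183 and 241 normalized RPF reads in WT and 439, 448 and 653 in KO (log2 fold change 1.18, SE 0.19, limma adjusted p 0.00931). Input of Atf5 was 767, 447 and 662 in WT mice 1, 2 and 3 and 806, 791 and 823 in KO mice. In RPF 2 of the 11 genes had an unadjusted p under 0.05 by limma, where 13.4% of all genes did. The median RPF log2 fold change of the list was 0.29, against −0.03 over all genes, with 9 of 11 genes above 0, as were 46.0% of all genes. The input and TE medians of the list were 0.13 and 0.07. In TE 6 of 11 genes were above 0, as were 48.7% of all genes. The smallest p-value in input belonged to Vldlr (1.25, SE 0.46, p 0.0168), and the TE log2 fold change of Atf5 was 0.77 (SE 0.27, p 0.0112, limma adjusted p 0.998). The GC trend was not removed for the values of this list, and the part of GC content in them was not tested. Phosphorylation of eIF2 was not measured in these libraries.

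The mean RPF profile of the 3 eIF2 subunits over mice was compared with all genes with a mean of at least 50. The mean centred log2 profile of the 3 subunits was 0.12, 0.26 and 0.32 in WT mice 1, 2 and 3 and −0.15, −0.17 and −0.38 in KO mice. It averages genes that differed among themselves. Over the 6 libraries Eif2s1 had a Pearson r of 0.65 with Eif2s2 and 0.40 with Eif2s3x, and Eif2s2 and Eif2s3x had an r of −0.03. Within WT, Eif2s1 was highest and Eif2s2 lowest in mouse 2. The 5704 genes with that mean were ranked, with the eIF2 subunits among them left out. The most similar over the 6 RPF libraries were Psma1, a proteasome subunit (Pearson r 0.998), Tbc1d8b (0.994) and Ascc3, a helicase that splits collided ribosomes (0.993). Psma1 had RPF of 989 to 1075 in WT and 797 to 887 in KO. These correlations describe 6 points that share a genotype difference and library depths.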

How the data were processed

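Livers of 3 WT and 3 KO mice gave 12 libraries. The members and gene lists were chosen with earlier results of these data known. For input, the authors trimmed paired reads, aligned them to mm10 with STAR 2.7.3a and kept uniquely mapped pairs. The deposited counts per gene are read pairs counted over exons with featureCounts (1.6.0 in the submitters' processing notes, 2.0.3 in the file header). RPF came from read 1 alone, which the authors cleared of rRNA and mapped to a single place with RiboToolkit. The deposited table of normalized signal is described as length-normalized, but 100% of its values were whole reads (within 0.01 read) times 1 factor per library, and recovered input reads equalled the counts in 100% of genes. The log2 fold changes and p-values that the authors deposited in it were not used. Of 55487 counted genes, 346 have no symbol in the reference. Every measurement column had a sample.

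Input was tested on counts with edgeR 4.0.16 (R 4.3.3; TMM, filterByExpr, robust quasi-likelihood test, 10057 genes). RPF, TE and RPF against input in WT were tested with limma 3.58.1 (eBayes, trend and robust) on log2(value + 1) over 12 libraries and 4 group means, for the 8994 genes whose mean reached 10 in both assays. The input change was also read from this limma fit, beside edgeR. Input and RPF of the same mouse entered these fits as independent libraries. A block of mouse was an alternative for TE and for RPF against input. The design assumed a length-normalized unit, so the count model on recovered reads stands beside limma. Fold changes on this scale understate those of low genes. P-values are two-sided and adjusted by Benjamini-Hochberg over all genes tested, with a threshold of 0.05. The labels give littermates 1 number, so the mice are paired. Deviations from group means correlated between littermates with 0.0816 to 0.127 (input) and 0.144 to 0.242 (RPF). A litter term is not part of the study's stated methods, and the replicate block was therefore an alternative. Lengths, GC content and start sites came from the longest complete CDS per gene in GENCODE M21 (mm10). Fits were also run on simulated libraries with known changes. These held no litter or GC effect, so they do not cover such effects in the real libraries.

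Further alternatives were DESeq2 1.42.0, RLE size factors, pseudocounts of 0.1 and 5, changed filters, centring, removal of the 18S, mitochondrial rRNA and Lars2 genes, GC and length trends (splines with 4 degrees of freedom), RPF columns alone, values per length, and leaving out each mouse. The named genes were the 10 members, the 3 further genes of the complexes, Mettl5, sex-linked genes, the 3 genes most like the eIF2 subunits, and listed genes that passed, or the 1 with the smallest p-value where none did. Intervals and p-values over mice include biological spread, and counts of 12 to 39 RPF reads limit Eif2s3x most.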

Additional observations from a re-analysis of the deposited data

How the results depend on the processing

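Of 680 values of 51 results under the alternatives, 617 stayed on the same side of 0 and of the threshold, or within 1.5 times for counts. No member passed in input or TE under any alternative, and in RPF 1 passed (Eif2s1), with the replicate block of litter only. Over all genes, input gave 30 of 23941 genes without a count filter, against 0 of 10057. It gave 2 with the litter block, 1 with DESeq2 and 0 to 21 when a mouse was left out (21 without KO mouse 2). RPF gave 293 genes with the litter block, 12 with the GC trend removed, 87 with GC and length trends removed and the block, and 23 from RPF columns alone, against 44, and 0 to 228 when a mouse was left out (0 without KO mouse 2, 228 without KO mouse 1). The litter block changed no other call of a member. With the block of mouse, 774 genes had an unadjusted p under 0.05 in TE by limma, against 423, and 0 passed adjustment. The TE of Eif2s2 then had a limma adjusted p of 0.500, against 0.998. For RPF against input in WT this block gave 5783 genes and 8 members. RPF against input in WT gave 3236 of 5038 genes at a mean of at least 50, for 5260 of 8994. All 7 members tested at that filter passed. Per length 5 members passed, for 8, and 5 to 8 passed when a WT mouse was left out. Eif2b4 (−0.33) and Eif2ak1 (0.0727) changed sign per length. With the GC trend removed, the signs of Eif2b4 in RPF (−0.0598), Eif2s1 in TE (0.0305) and Eif2b2 in TE (−0.0593) reversed, and with the length trend and block as well they were −0.0657, 0.0525 and −0.0456. Per unique window, 1 of 10 members kept its place in the order of levels (10 in all others), and the Eif2s1 share of eIF2 was 35.4%, for 64.5%. With every measured subunit counted it was 40.8% (31.2% per unique window), and the Eif2b1 share of eIF2B was 39.9% (40.2%), for 46.0%.

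Signs of small changes turned when 1 mouse was left out. In input these were Eif2s2 (−0.12 to 0.15), Eif2b2 (−0.31 to 0.14), Eif2b5 (−0.14 to 0.0279) and Eif2ak3 (−0.20 to 0.25). In RPF they were Eif2b2 (−0.15 to 0.0161) and Eif2b4 (−0.0387 to 0.12), and in TE Eif2s3x (−0.14 to 0.33), Eif2b1 (−0.000632 to 0.345) and Eif2b2 (−0.19 to 0.24). The causes were not tested. Depth limits the genes with few reads, such as Eif2s3x and Eif2ak4.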
